A study of Mus musculus with 11 samples.

Results

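The RNA of 37 interferon-induced genes was measured in the distal colon of mice that lack neuregulin-4 and of their wild-type cage mates. The 37 genes were chosen by name as known interferon targets, and all 37 were found among the 22243 genes of the deposited table. They comprise 20 genes induced chiefly by type I and type III interferon, called type I members here, and 17 genes induced chiefly by interferon gamma, called gamma members. This division follows textbook knowledge, and most members of either group respond to some degree to both kinds of interferon.

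The mice carried either a homozygous loss of Nrg4 (Nrg4-/-, called KO) or the wild-type gene (WT). The product of Nrg4 is a growth factor that binds and activates ErbB4, a receptor of the EGF receptor family. There were 5 KO and 6 WT mice, 11 to 12 weeks old, of both sexes, housed across genotypes from 9 weeks of age. Cage A held 2 KO and 2 WT mice, cage B held 2 KO and 2 WT mice, and cage C held 1 KO and 2 WT mice. All mice gave full-thickness distal colon, so that epithelium, immune cells and muscle were read together, and all were untreated as far as the labels say. Values are TPM, a transcript level scaled for length and library total, summed over the principal transcripts of a gene. Mice are named by genotype and number, such as KO-3.

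Interferons are secreted proteins that warn tissue of viruses and intracellular microbes. Type I and type III interferon bind different receptors, and both act through a complex that holds STAT2 and IRF9 and binds a DNA element called the ISRE. Interferon gamma, a product of T and NK cells, acts through another element, the GAS. In the intestine a low interferon signal is known to persist without infection, set in part by gut microbes.

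The promoters of the most abundant members that held the element of their group are shown here, because they hold the elements through which the 2 kinds of signal are known to act. Each run holds 180 bases directly before the gene's start, 5′ to 3′, from RefSeq on GRCm38.p6. Capitals mark matches to the ISRE core (GAAA, any 2 bases, then GAAA) in the type I members and to the GAS (TTCNNNGAA) in the gamma members; overlapping matches run together.
Oas1a (chr5:120907526-120907705, minus strand): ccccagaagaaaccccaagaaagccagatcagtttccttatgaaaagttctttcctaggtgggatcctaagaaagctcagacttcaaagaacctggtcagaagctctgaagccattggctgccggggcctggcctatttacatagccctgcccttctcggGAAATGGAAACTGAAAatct
Bst2 (chr8:71537473-71537652, minus strand): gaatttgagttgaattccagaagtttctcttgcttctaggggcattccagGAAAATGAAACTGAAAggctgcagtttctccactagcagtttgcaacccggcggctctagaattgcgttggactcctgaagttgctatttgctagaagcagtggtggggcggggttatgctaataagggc
Isg15 (chr4:156200819-156200998, minus strand): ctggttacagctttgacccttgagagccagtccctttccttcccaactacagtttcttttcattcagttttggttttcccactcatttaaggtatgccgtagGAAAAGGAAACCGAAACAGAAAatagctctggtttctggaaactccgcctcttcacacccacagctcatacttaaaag
Irf1 (chr11:53769834-53770013, plus strand): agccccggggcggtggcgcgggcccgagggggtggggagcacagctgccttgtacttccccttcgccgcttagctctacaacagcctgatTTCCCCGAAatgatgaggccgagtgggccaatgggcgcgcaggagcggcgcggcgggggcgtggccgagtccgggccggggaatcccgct
Irf8 (chr8:120736178-120736357, plus strand): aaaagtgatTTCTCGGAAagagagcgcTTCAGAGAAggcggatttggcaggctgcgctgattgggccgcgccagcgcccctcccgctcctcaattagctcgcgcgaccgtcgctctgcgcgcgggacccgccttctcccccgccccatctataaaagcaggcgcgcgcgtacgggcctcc

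Isg15 held 3 overlapping ISRE matches, the first at position -78 from the start. Oas1a held 2, from position -20, and Bst2 held 2, from position -130. Oas1a and Bst2 each also held 1 GAS match, which is not marked. Irf1 held 1 GAS match at position -90, and Irf8 held 2, at positions -171 and -153. Psmb8 also qualified, but its RefSeq window lay inside the gene body as GENCODE M21 annotates it and is not shown. The RefSeq table had windows, from 250 bases before to 50 after the start, for 29 of the 37 members, 34 windows in all. On either strand, 16 of these 34 windows (47.1%) held the ISRE core, against 3.44% of all 32851 windows in the table, and 10 of 34 (29.4%) held the GAS, against 8.30% of all windows. In the type I members, 9 of 17 windows held the ISRE core and 3 of 17 the GAS. In the gamma members, 7 of 17 windows held each. A match describes these letters and is not evidence of binding.

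The TPM of a mouse summed to between 558446 and 770986, and 10221 to 10822 genes reached 1 TPM. TPM keeps no read depth, so no counting error can be given. Mitochondrial genes took 19.0% (KO-1) to 42.9% (KO-3) of the summed TPM. Nrg4 was listed at 0 in all 11 mice, so its level cannot check the genotype labels. The Y-linked gene Eif2s3y was at 21.5 TPM or more in every mouse of cage A and at 0.0523 TPM or less in cages B and C, so sex and cage A cannot be told apart. Markers of colon epithelium and of distal position were present in every library (summed epithelial markers 6620 to 11620 TPM). Leukocyte markers (summed TPM of 5 genes) stood at 190.6 in KO-1, 96.5 in WT-2, 78.7 in WT-11 and 78.5 in WT-7, and at 10.2 to 26.4 in the other 7 mice. In tissue pieces, fewer cells of a type and less RNA per cell cannot be told apart.

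Most members were low but detectable. Of the 37, 26 reached 1 TPM in at least 5 mice and entered the tests, 13 of each group, and 17 were at 1 TPM or more in every mouse. Only 9 members averaged 10 TPM or more over all mice. The transcription factor gene Irf1 was the most abundant at 63.7 TPM, followed by Oas1a, an oligoadenylate synthetase that senses double-stranded RNA, at 40.8 TPM. Irf7, which drives interferon production, averaged 25.99 TPM. Psmb8, a catalytic immunoproteasome subunit, averaged 24.9 TPM, and Bst2, or tetherin, which holds budding virus at the cell surface, averaged 22.6 TPM. These 3 levels lie closer together than the spread of Irf7 between mice, and their order is not resolved.

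The 11 members under the filter were the type I members Irf9, Oas2, Oas3, Mx1, Mx2, Usp18 and Ifi44 and the gamma members Gbp4, Gbp5, Gbp6 and Iigp1. The antiviral GTPase gene Mx1 was listed at 0 in 9 mice and at 0.260 TPM in KO-4 and 0.158 TPM in KO-3. Its relative Mx2 was listed at 0 in 7 mice and reached at most 0.232 TPM, in WT-2. The highest single value among these 11 genes was 5.70 TPM for Iigp1, an immunity-related GTPase that attacks the vacuoles of intracellular pathogens, in WT-2; the other 10 mice had at most 1.84 TPM. Oas3 was at 3.54 TPM in KO-3, against 3.09 TPM in WT-11 and 2.58 TPM in WT-10, and at 1.17 TPM or less in the other mice. Usp18, which removes ISG15 from proteins and dampens the type I receptor, was at 1.42 TPM in KO-3 and at 2.27 TPM in WT-10, and at 1.12 TPM or less in the other mice. Ifi44 was highest in KO-3 (1.70 TPM), WT-11 (1.51 TPM) and WT-10 (1.19 TPM). The same 3 mice stood highest for Oas3 and Ifi44. Irf9, the DNA-binding partner of STAT2, was at 1 TPM or more in KO-1 (1.72 TPM), KO-3 (1.24 TPM) and WT-10 (2.33 TPM). In the other mice Irf9 was at 0.790 TPM or less, and it was listed at 0 in KO-8 and WT-2. The deposited table holds 1 transcript of Irf9, so RNA of any other transcript of the gene is not counted. Oas2 reached at most 0.509 TPM, in WT-11. Of the guanylate-binding proteins, Gbp4 reached at most 0.374 TPM, in WT-5, Gbp5 was at 0.0962 to 0.929 TPM in KO and 0.243 to 1.18 TPM in WT, and Gbp6 was at 1.36 TPM in KO-3 and at 0.541 TPM or less elsewhere. Gbp6 shares 94.4% of the 31-base words of its transcript with other genes and Gbp4 shares 22.6%, so these 2 levels are uncertain. None of the 11 was tested. Of the tested members, Xaf1 passed the filter at 5 mice (1 KO, 4 WT) and Oasl2 at 7 (2 KO, 5 WT), so their passing leaned on the WT mice. The 5 mice of Xaf1 were all in cages B and C.

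**Figure D1:**
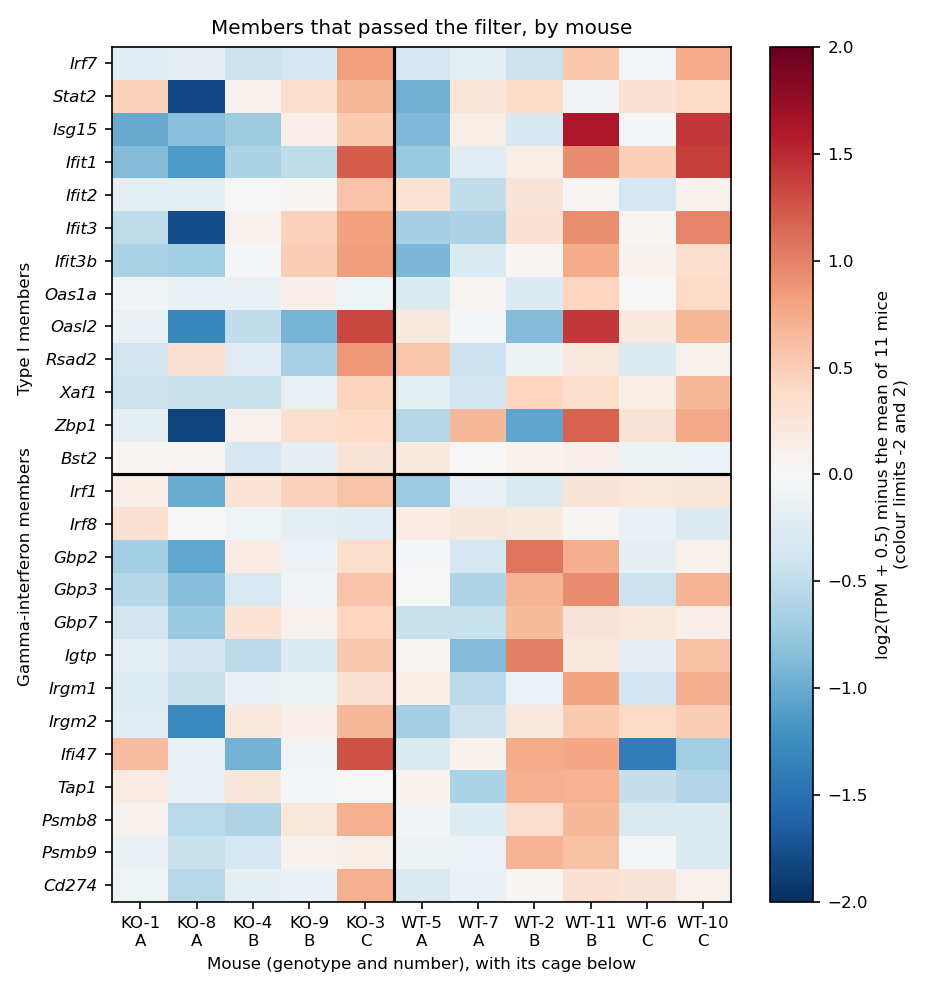
The 26 members that passed the filter (rows, type I above, gamma below) in each mouse (columns, KO left, WT right, cage letter below). Colour gives log2(TPM + 0.5) minus the member's mean over 11 mice. KO-3, WT-11 and WT-10 are red for most type I members, KO-8 is blue for most members, and WT-2 is red for several gamma members and pale or blue for most type I members.

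The first comparison asked whether loss of Nrg4 changed these genes. No member passed the test between KO and WT colon after adjustment over all genes. Of the 26 tested members 20 had a lower mean in KO once cage was accounted for, by a small amount: the median log2 fold change was -0.10 in both groups, against -0.01 over all genes tested. The sign was below 0 for 10 of 13 type I members and for 10 of 13 gamma members, against 53.2% of all genes. The KO and WT ranges overlapped for all 26 members; over all genes tested, 0.223% had ranges that did not overlap.

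By limma with cage as a term, 0 of 26 members passed a false discovery rate (FDR) of 0.05, against 0.0372% of the 10756 genes tested. At an unadjusted p under 0.05, 1 member was lower in KO, against 2.04% of all genes, and 0 were higher, against 1.06%. In the authors' deposited table, 36 of the 46 member transcripts had a p-value and 4 of them were under 0.05, namely 2 of Gbp3 (0.00583 and 0.0207), Gbp2 (0.0215) and Ifit1 (0.0451), with a deposited q-value of 1 in each. Over all transcripts of the authors' deposited table, 2.24% of those with a p-value were under 0.05.

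The member under 0.05 here was Gbp2, a guanylate-binding protein gene whose product is recruited to vacuoles that hold microbes. It was at 10.6 and 8.17 TPM in the KO mice of cage A, 19.5 and 16.0 TPM in those of cage B and 22.2 TPM in KO-3, against 16.7 and 13.4 TPM in WT mice of cage A, 36.7 and 28.8 TPM in cage B and 15.3 and 18.4 TPM in cage C. Both KO mice lay below both WT mice in cages A and B, and the KO mouse of cage C lay above both WT mice. The means were 15.3 ± 5.88 TPM in KO and 21.6 ± 9.18 TPM in WT (SD, n = 5 and 6), a log2 fold change of -0.47 ± 0.20 (SE; limma adjusted p = 0.9999).

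Among the type I members, Ifit1, which binds foreign RNA caps and blocks their translation, came closest. It was at 1.80 and 1.39 TPM in KO mice of cage A, 2.19 and 2.45 TPM in cage B and 9.23 TPM in KO-3, against 1.99 and 3.08 TPM in WT mice of cage A, 4.02 and 7.52 TPM in cage B and 5.30 and 10.4 TPM in cage C. KO-3 was the only KO mouse above 2.45 TPM. The log2 fold change was -0.53 ± 0.27 (limma adjusted p = 0.9999). Its neighbours in the gene cluster differed less, with log2 fold changes of 0.10 ± 0.21 for Ifit2, -0.24 ± 0.28 for Ifit3 and 0.07 ± 0.22 for Ifit3b. Ifit3 and Ifit3b share 61.8% and 55.5% of the 31-base words of their transcripts with other genes, chiefly each other, so their separate levels are uncertain.

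Isg15, a ubiquitin-like protein that is attached to other proteins, was at 4.95, 5.597, 6.15 and 11.2 TPM in the KO mice of cages A and B and at 15.2 TPM in KO-3. In WT mice it was at 5.43 and 11.4 TPM in cage A, 8.24 and 33.0 TPM in cage B and 10.3 and 28.7 TPM in cage C. WT-11 and WT-10 stood apart from the other 9 mice. The means were 8.63 ± 4.45 TPM in KO and 16.2 ± 11.6 TPM in WT (SD, n = 5 and 6), with a log2 fold change of -0.60 ± 0.39 (limma adjusted p = 0.9999).

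Irf7 was at 21.2, 21.9, 18.2 and 19.2 TPM in the KO mice of cages A and B and at 44.1 TPM in KO-3. In WT mice it was at 19.5 and 21.6 TPM in cage A, 18.1 and 36.2 TPM in cage B and 24.2 and 41.7 TPM in cage C. The same 3 mice as for Oas3 were the highest, and the other 8 lay between 18.1 and 24.2 TPM. The genotype means, 24.9 ± 10.8 TPM in KO and 26.9 ± 9.73 TPM in WT, differed by less than the spread between mice (log2 fold change -0.02 ± 0.21).

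The remaining type I members gave no call and mostly small differences. Oas1a, at 36.4 to 43.5 TPM in KO and 33.1 to 54.5 TPM in WT, had a log2 fold change of -0.10 ± 0.14, and it shares 68.8% of its 31-base words with other genes, chiefly the relatives Oas1g and Oas1b. Bst2 was the steadiest type I member, at 17.9 to 26.9 TPM in KO and 20.7 to 25.7 TPM in WT (-0.05 ± 0.11). Stat2, the partner of IRF9, was at 1.02 to 7.88 TPM in KO and 2.22 to 6.39 TPM in WT (log2 fold change -0.01 ± 0.38). Rsad2, or viperin, which blocks viral RNA synthesis, was at 0.873 to 3.45 TPM in KO and 1.13 to 2.66 TPM in WT (0.02 ± 0.28). Oasl2, an OAS relative, was at 0.223 to 3.99 TPM in KO and 0.475 to 4.25 TPM in WT (-0.44 ± 0.46). Xaf1, a partner of the apoptosis inhibitor XIAP, had a log2 fold change of -0.30 ± 0.20. Zbp1, a sensor of left-handed nucleic acid that can start necroptosis, ranged from 0.817 to 5.82 TPM in KO and 1.79 to 10.4 TPM in WT (-0.37 ± 0.47).

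Among the gamma members, Irf1, a transcription factor gene that switches on later genes, had a higher mean in KO, without passing the test. It was at 67.0 and 30.4 TPM in KO mice of cage A, 73.3 and 83.7 TPM in cage B and 90.0 TPM in KO-3, against 36.4 and 55.5 TPM in WT mice of cage A, 50.4 and 72.7 TPM in cage B and 70.1 and 71.1 TPM in cage C. In cages B and C every KO mouse lay above every WT mouse of its cage, and in cage A the KO mice were the highest and the lowest. The log2 fold change was 0.23 ± 0.21 (limma adjusted p = 0.9999). Irf8, a factor of myeloid cells, was nearly level, at 15.6 to 22.7 TPM in KO and 15.1 to 21.4 TPM in WT (-0.11 ± 0.09).

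The other GTPase genes also gave no call, and their genotypes differed by less than 0.5 on the log2 scale. Gbp3 was at 1.30 to 4.32 TPM in KO and 1.64 to 5.79 TPM in WT (log2 fold change -0.42 ± 0.28), and Gbp7 at 0.841 to 2.51 TPM in KO and 1.14 to 2.99 TPM in WT (-0.07 ± 0.16). Igtp, an immunity-related GTPase of vacuole and lipid droplet membranes, was at 4.03 to 9.01 TPM in KO, and in WT it was lowest in WT-7 (3.08 TPM) and highest in WT-2 (12.6 TPM), with a log2 fold change of -0.25 ± 0.29. The related GTPase genes Irgm1 and Irgm2, which regulate the others of the family, had log2 fold changes of -0.19 ± 0.25 and -0.10 ± 0.19; Irgm1 was at 3.39 to 6.03 TPM in KO and 3.19 to 8.60 TPM in WT. Igtp and Irgm2 overlap on chromosome 11 and share part of their sequence (16.4% of the 31-base words of Igtp are shared with other genes). Ifi47, a further immunity-related GTPase, was at 6.61 TPM in KO-3, 1.03 to 4.04 TPM in the other KO mice and 0.634 to 4.53 TPM in WT (0.23 ± 0.49).

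The antigen presentation genes gave no call either. Psmb9, a second immunoproteasome subunit, was at 11.7 and 9.26 TPM in KO mice of cage A, 9.998 and 13.5 TPM in cage B and 14.02 TPM in KO-3, against 11.9 and 11.8 TPM in WT mice of cage A, 20.8 and 19.4 TPM in cage B and 12.4 and 10.5 TPM in cage C. The 2 WT mice of cage B stood above the other 9 mice, and the log2 fold change was -0.28 ± 0.17 (limma adjusted p = 0.9999). Tap1, which carries peptides to class I molecules and whose gene overlaps Psmb9 on the opposite strand of chromosome 17, had 0.01 ± 0.21, and the neighbouring Psmb8 had -0.04 ± 0.26. Cd274, which encodes the T-cell inhibitory ligand PD-L1, was at 1.14 to 3.47 TPM in KO and 1.49 to 2.48 TPM in WT (-0.03 ± 0.18).

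**Figure D2:**
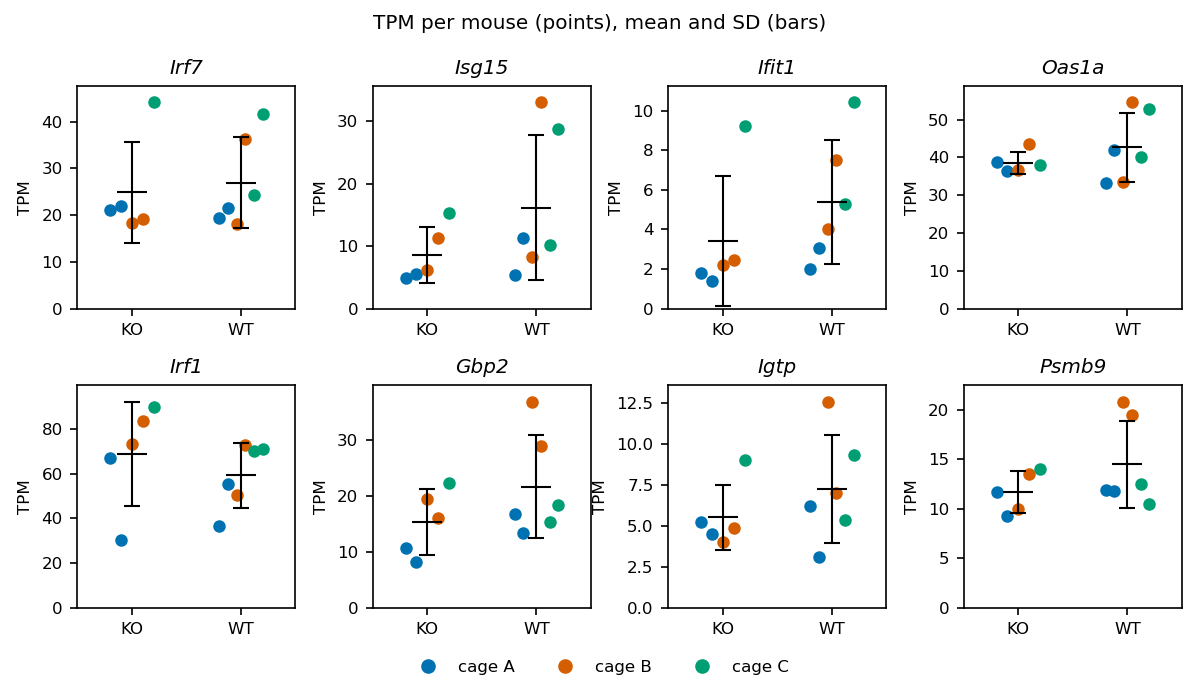
TPM of 4 type I members (top) and 4 gamma members (bottom) in each KO mouse (left) and WT mouse (right), coloured by cage; the cross and bars give mean and SD (n = 5 and 6). The KO and WT points overlap in all 8 panels, and the KO mouse of cage C is the highest KO point for every gene shown but Oas1a.

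The second comparison asked whether cages differed. Most members had lower means in cage A than in cages B and C: for 23 of 26 the difference was below 0, against 46.4% of all genes, with a median log2 difference of -0.56 for type I members and -0.44 for gamma members, against 0.03 over all genes tested. At an unadjusted p under 0.05, 11 members were lower in cage A (7.61% of all genes were) and 1 was higher (9.83% of all genes were). None passed the FDR of 0.05, which 0.0465% of all genes did; the smallest adjusted p of a member was 0.120 (limma). The F test on both cage terms gave 0 members at the FDR (0.0% of all genes) and 11 at an unadjusted p under 0.05, against 12.1% of all genes. Xaf1, which passed the filter only through mice of cages B and C, is counted in the 23 and in both counts of 11. Since cage A alone had Y-linked RNA, cage and sex cannot be told apart in these values.

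The lower members included 3 genes of the Ifit cluster. Ifit3 averaged 1.84 ± 0.767 TPM in cage A (SD, n = 4), with 0.702 to 2.38 TPM, and lay between 3.67 and 7.60 TPM in every mouse of cages B and C. The ranges of cage A and of the other cages did not overlap. This held for 4 members, Ifit3, Ifit3b, Irgm2 and Gbp7, all lower in cage A (1.66% of all genes were lower with no overlap), and for 0 in the other direction (2.38% of all genes). For Ifit3 the log2 difference was -1.39 ± 0.29 (SE; limma adjusted p = 0.121). Ifit3b was at 0.799 to 1.498 TPM in cage A, against 1.86 to 3.85 TPM in the other cages, and its log2 difference was -0.99 ± 0.23. Ifit1 was at 1.39 to 3.08 TPM in cage A, against 2.19 to 7.52 TPM in cage B and 5.30 to 10.4 TPM in cage C, and its log2 difference was -1.20 ± 0.28. Isg15 and Xaf1 had log2 differences of -1.01 ± 0.41 and -0.56 ± 0.20. Xaf1 was at 0.603 to 0.806 TPM in cage A and passed the filter only through mice of cages B and C. Its cage difference is thus not independent of the filter.

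The gamma members lower in cage A were the GTPase genes Irgm2, Gbp7, Gbp2 and Gbp3, together with Irf1 and Cd274. Irgm2 was at 2.07 to 4.93 TPM in cage A, against 6.23 to 9.48 TPM in cages B and C, with no overlap (log2 difference -1.02 ± 0.20, limma adjusted p = 0.120). Gbp7 was at 0.841 to 1.25 TPM in cage A, against 1.89 to 2.99 TPM in cages B and C, also with no overlap (-0.77 ± 0.17). Gbp2 and Gbp3 had log2 differences of -0.76 ± 0.20 and -0.77 ± 0.28, Irf1 had -0.70 ± 0.21 and Cd274 had -0.44 ± 0.19. Irf8 went the other way, with 18.2 to 22.7 TPM in cage A and 15.1 to 20.8 TPM in cages B and C (0.29 ± 0.09). Without KO-3 the number of members lower in cage A fell to 7, and over all single mice left out it ran between 7 and 14.

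Macrophage markers (9 genes) summed to 126.4 to 196.1 TPM in cage A, 95.3 to 200.4 TPM in cage B and 78.2 to 109.2 TPM in cage C, and T and NK cell markers (13 genes) to 4.10 to 91.2, 3.52 to 37.1 and 1.96 to 11.1 TPM. Their part in the cage differences was not tested.

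Between cages C and B fewer members stood out. Ifit1 and Irf7 were higher in cage C at an unadjusted p under 0.05 (log2 differences 0.96 ± 0.34 and 0.68 ± 0.27; 1.67% of all genes were) and Tap1 was lower (-0.75 ± 0.27; 2.42% of all genes were). Tap1 was at 2.47 to 3.92 TPM in cage C and at 3.85 to 6.84 TPM in cage B. None passed the FDR (0.0% of all genes did).

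**Figure D3:**
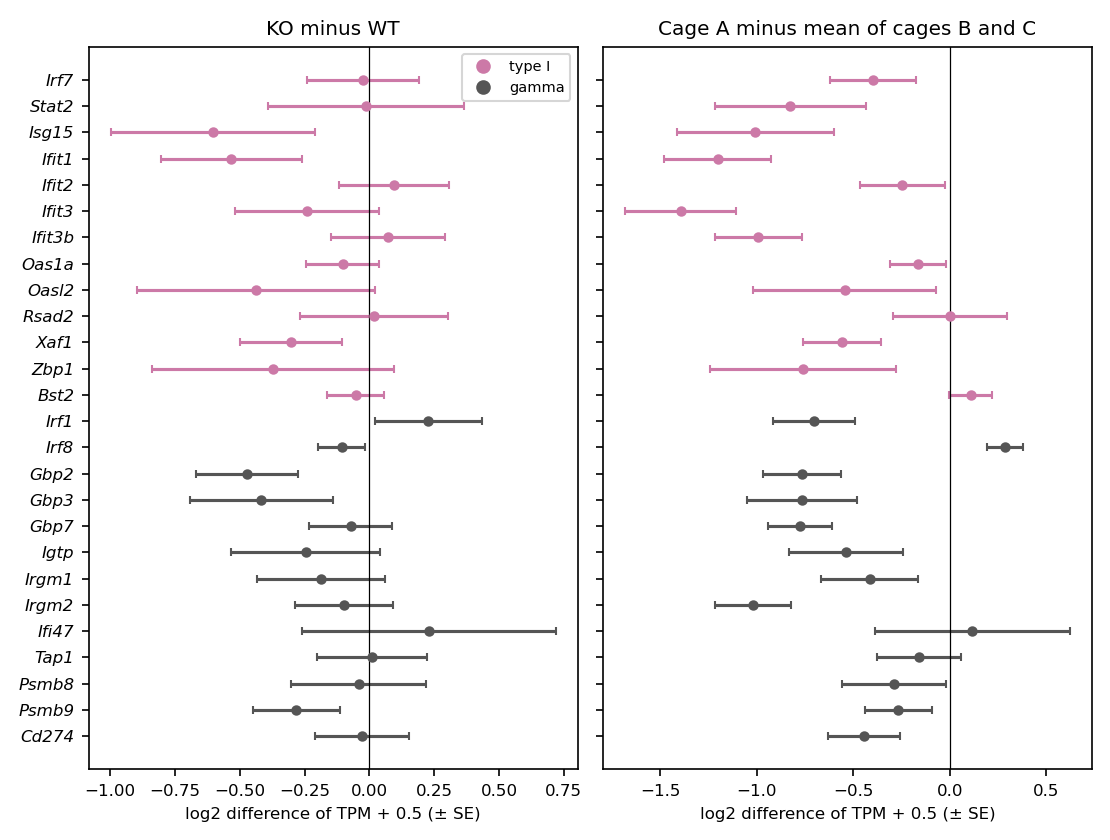
Log2 difference of TPM + 0.5 with its SE for the 26 tested members (type I in pink, gamma in grey), KO minus WT with cage as a term (left) and cage A minus the mean of cages B and C (right). KO minus WT values lie between -0.60 (Isg15) and 0.23 (Ifi47 and Irf1), and 23 of 26 cage A values lie below 0, down to -1.39 (Ifit3).

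The third comparison asked whether the genotype difference depended on cage. Within cage A the KO mean was lower for 20 of 26 tested members (51.0% of all genes), within cage B for 23 (56.0%) and within cage C for 4 (46.5%). The median log2 difference of the members was -0.11, -0.45 and 0.34 in the 3 cages, against -0.0046, -0.04 and 0.03 over all genes tested. In cage A both KO mice lay below both WT mice for 5 members (9.91% of all genes) and above them for 0 (9.46%). In cage B they lay below for 14 members (22.5%) and above for 1, Irf1 (14.5%). In cage C, KO-3 lay below both WT mice for 1 member, Oas1a (32.7%), and above both for 16 (35.4%). The cage C values rest on this single KO mouse.

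The F test on the interaction of genotype and cage called 0 of 26 members at the FDR of 0.05, against 0.0186% of all genes, and 5 were at an unadjusted p under 0.05, against 3.97% of all genes. These were Ifi47, Gbp2, Psmb8, Psmb9 and the type I member Bst2. Ifi47 had the smallest p (0.00173, limma adjusted p = 0.567), and its KO minus WT log2 difference was 0.34 for cage A, -1.26 for cage B and 2.30 for cage C. In cage C it was at 6.61 TPM in KO-3, against 0.634 and 1.34 TPM in WT-6 and WT-10. Psmb8 was at 39.2 TPM in KO-3, against 19.4 and 19.5 TPM in the WT mice of cage C, while in cage B it was at 15.6 and 27.7 TPM in KO, against 30.3 and 37.8 TPM in WT. For Gbp2 and Psmb9 the differences were -0.87 and -0.76 in cage B and 0.40 and 0.28 in cage C. Without WT-11 the number under 0.05 fell to 2 and without KO-4 to 3; without KO-3, when cage C holds no KO mouse and cages A and B alone are compared, it was also 2.

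**Figure D4:**
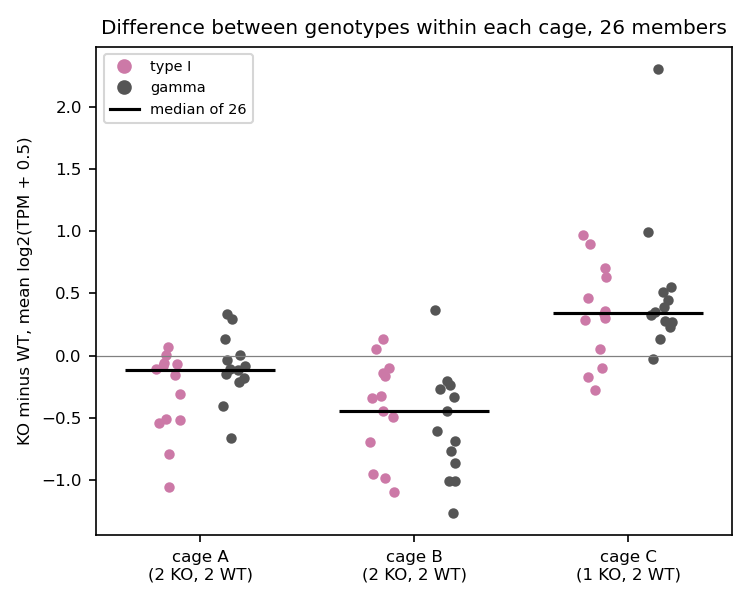
KO minus WT difference of the mean log2(TPM + 0.5) within each cage for the 26 tested members (type I in pink, gamma in grey; bar, median of 26). The median lies at -0.11 for cage A, -0.45 for cage B and 0.34 for cage C, and the single KO mouse of cage C carries the points of that cage.

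The median member varied more between mice than the median gene tested. The genes were not matched for level, so the part of low TPM in this was not tested. The ratio of the highest to the lowest mouse, on TPM + 0.5, had a median of 3.35 over type I members and 2.60 over gamma members, against 1.85 over all genes tested. The residual SD left after cage and genotype had a median of 0.49 and 0.37 on the log2 scale, against 0.26 over all genes. Few mice set these extremes: KO-3 was the highest mouse for 11 of the 26 members, WT-11 for 6, WT-2 for 5 and WT-10 for 3, and KO-8 was the lowest for 12. These counts were not taken over all genes tested. Whether the same mice were also extreme for genes in general was not tested. The 5 members led by WT-2 were all gamma members (Gbp2, Gbp7, Igtp, Tap1 and Psmb9), and the 3 led by WT-10 were all type I members (Ifit1, Ifit3 and Xaf1).

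To set the 2 groups of members side by side in each mouse, a score was taken as the mean over all 20 type I or all 17 gamma members of log2(TPM + 0.5) minus the member's mean over 11 mice. The type I score was -0.21 and -0.69 in the KO mice of cage A, -0.24 and -0.13 in those of cage B and 0.65 in KO-3. In WT mice it was -0.30 and -0.12 in cage A, -0.08 and 0.53 in cage B and -0.02 and 0.61 in cage C. KO-3, WT-10 and WT-11 were well above the other 8 mice, whose scores were all below 0. The gamma score was -0.07 and -0.53 in the KO mice of cage A, -0.18 and 0.02 in cage B and 0.48 in KO-3, against -0.13 and -0.33 in WT mice of cage A, 0.43 and 0.44 in cage B and -0.19 and 0.05 in cage C. KO-3, WT-11 and WT-2 were the highest, and KO-8 was the lowest on both scores.

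The 2 scores parted in 2 WT mice. WT-10 had a type I score 0.56 above its gamma score, and WT-2 had one 0.50 below it; in the other 9 mice the difference lay between -0.18 and 0.21. In WT-2, Iigp1, Igtp and Gbp2 were the highest of all mice, while Irf7, at 18.1 TPM, was the lowest. WT-2 also had the second highest sum of leukocyte markers (96.5 TPM). KO-1, with the highest sum (190.6 TPM, and 91.2 TPM of T and NK cell markers), had scores of -0.21 and -0.07, and KO-3, with high scores, had a leukocyte sum of 26.4 TPM. WT-11 (78.7 TPM, and 37.1 TPM of T and NK cell markers) had scores of 0.53 and 0.44. WT-7 (78.5 TPM) had scores of -0.12 and -0.33. The relation of leukocyte markers to the scores across mice was not tested. The type I score averaged -0.13 ± 0.48 in KO and 0.10 ± 0.37 in WT, and the cage-adjusted difference was -0.16 ± 0.20 (SE). The gamma score averaged -0.06 ± 0.36 in KO and 0.05 ± 0.32 in WT (cage-adjusted difference -0.08 ± 0.18), and the difference of type I and gamma scores was -0.07 ± 0.14. Each difference was smaller than its own SE. Without the 4 mice richest in leukocyte markers the cage-adjusted differences turned to 0.04 ± 0.32 for the type I score and 0.14 ± 0.30 for the gamma score. These mice were KO-1, WT-2, WT-11 and WT-7, so cage B kept no WT mouse and no longer bore on the difference. Leukocyte content and the loss of cage B cannot be told apart in this run.

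By cage, the type I score averaged -0.33 ± 0.25 for cage A, 0.02 ± 0.35 for cage B and 0.41 ± 0.37 for cage C, and the gamma score -0.26 ± 0.21, 0.18 ± 0.31 and 0.11 ± 0.34 (SD, n = 4, 4 and 3). The 2 scores gave cages B and C in opposite order, and on the gamma score these 2 cages differed by less than the spread within either.

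**Figure D5:**
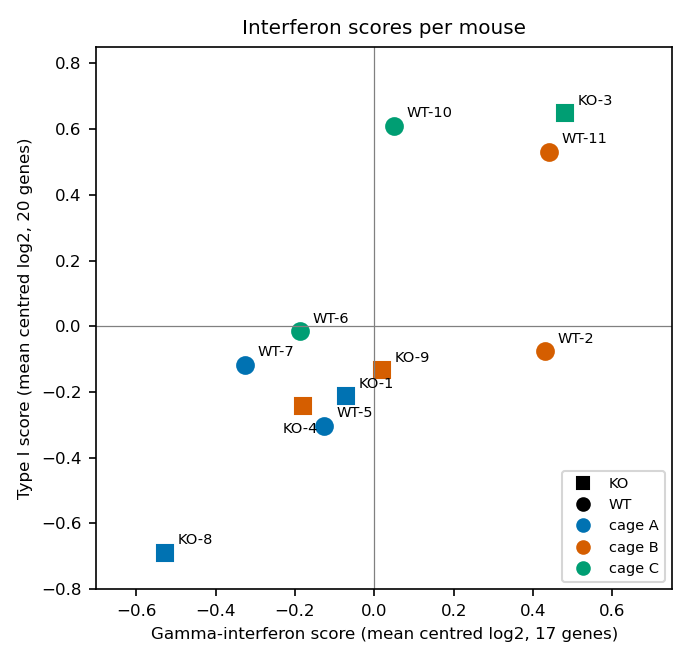
Type I score against gamma score for each mouse (squares KO, circles WT, colour by cage; mean centred log2 values over 20 and 17 genes). KO-3 and WT-11 are high on both axes, KO-8 is low on both, WT-10 is high on the type I axis with a gamma score of 0.05, and WT-2 is high on the gamma axis with a type I score of -0.08.

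The rest of the pathway was read from lists of ligands, receptors, inhibitors, sensors and further induced genes. Of 21 interferon genes, Ifnb1, Ifng and Ifnl2 and Ifnl3 among them, 19 were listed at 0 in every mouse and the highest single value was 0.120 TPM, so none entered the tests. A listed 0 need not mean absent RNA: Adar, an RNA-editing enzyme gene in broad use and named here after its values were seen, was also listed at 0 in all 11 mice. Of the receptors and their signal transducers, 10 of 11 were tested and 0 had an unadjusted p under 0.05 for genotype. Of all genes 2.04% were lower and 1.06% higher in KO at that p. In cage A 4 were lower and 3 higher at that p, against 7.61% and 9.83% of all genes. Ifngr1, the ligand-binding chain of the interferon gamma receptor, was abundant, at 199.6 ± 24.8 TPM in KO and 212.1 ± 14.1 TPM in WT (SD, n = 5 and 6). It was at 171.4 to 204.9 TPM in cage A and at 207.8 to 231.7 TPM in every mouse of cages B and C (log2 difference -0.23 ± 0.07, limma adjusted p = 0.169). Its partner chain Ifngr2 had a log2 difference of -0.38 ± 0.10, and Jak2, a kinase bound to that receptor, had -0.03 ± 0.10.

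Of the 11 genes listed as signal inhibitors, not all of which are known chiefly for that role, 9 were tested. At an unadjusted p under 0.05, 1 was higher in KO, against 1.06% of all genes. This was Ptpn11, which encodes the phosphatase SHP2, at 11.3 ± 1.45 TPM in KO and 7.72 ± 2.14 TPM in WT (log2 fold change 0.54 ± 0.20, limma adjusted p = 0.9999). Socs3, a feedback inhibitor of JAK kinases, had a log2 difference of 0.63 ± 0.24 for cage A against the other cages. The other named genes of this list, Lgals9 and Ptpn2, had genotype log2 fold changes of -0.29 ± 0.20 and -0.01 ± 0.13. Of the 15 sensors and inducers found, 13 were tested and 0 had an unadjusted p under 0.05 for genotype. Of all genes 2.04% were lower and 1.06% higher in KO at that p. Ddx58, or RIG-I, the sensor of viral RNA, had -0.30 ± 0.20 and Trim25, which activates it, had -0.28 ± 0.19. In cage A, 2 of these genes were lower and 1 was higher at an unadjusted p under 0.05, against 7.61% and 9.83% of all genes. Tbk1, the kinase that activates interferon regulatory factors, was among the lower (-0.42 ± 0.10), and Tmem173, or STING, was the higher one (0.40 ± 0.12).

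Of 54 further interferon-induced genes 36 were tested and none passed the FDR for genotype. At an unadjusted p under 0.05, 3 were lower in KO and 1 was higher, against 2.04% and 1.06% of all genes. Rtp4 was at 7.66 ± 5.01 TPM in KO and 14.3 ± 7.82 TPM in WT (log2 fold change -0.74 ± 0.28), and Ddx60, a helicase linked to RIG-I signalling, was at 1.01 ± 0.808 TPM in KO and 2.18 ± 1.33 TPM in WT (-0.77 ± 0.32). Pml, which builds nuclear bodies, was the higher one, at 1.22 to 4.001 TPM in KO, against near 0 in WT-11, 0.167 TPM in WT-5, 0.245 TPM in WT-2 and 1.57 to 2.69 TPM in the other 3 WT mice (1.28 ± 0.42, limma adjusted p = 0.9999). In cage A 33 of the 36 had a difference below 0, against 46.4% of all genes, and their median log2 difference was -0.31. At an unadjusted p under 0.05, 11 were lower in cage A and 0 higher, against 7.61% and 9.83% of all genes. Ddx60 and Rtp4 had -1.16 ± 0.33 and -0.97 ± 0.29 in that contrast.

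Of 5 marker genes of plasmacytoid dendritic cells, a major source of type I interferon, Siglech was at 0.379 TPM in KO-1 and at or near 0 in the other 10 mice, and Ccr9 reached at most 0.269 TPM. Pacsin1 was at 0.556 to 1.34 TPM in every mouse and Cox6a2 reached 1.30 TPM. Klk1, a kallikrein gene, was at 904.9 to 1437 TPM and made up nearly all of the summed level of the list (906.9 to 1439 TPM), so these markers do not tell whether such cells were present. Squamous epithelium markers, which would mark tissue of the anal margin, reached at most 0.980 TPM for any single gene.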

How the data were processed

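Polyadenylated RNA of 11 mice was read from stranded mRNA libraries as single-end reads of 75 nt, per the labels' protocols. The submitters' processing notes name CASAVA, kallisto, sleuth and mm10, without versions. The deposited table gives TPM per principal transcript and mouse and, per transcript, the authors' p-value and q-value of their own comparison. It also holds the authors' log2 ratio, a mean natural log abundance and statistics of no fixed range (test score and variance terms), per the file headers; none of these was used here.

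Of 29213 rows 405 repeats were dropped, and TPM was summed per gene over 28808 transcripts. The 10756 genes that reached 1 TPM in 5 or more mice were tested with limma 3.58.1 in R 4.3.3 on log2(TPM + 0.5), with intensity trend, terms for cage and genotype, and Benjamini-Hochberg adjustment over all genes (FDR under 0.05). Fold changes are on the log2(TPM + 0.5) scale, which understates those of low genes. The log2 values were computed here from the deposited TPM. The fit was tested on simulated data. Further tests were an F test on cage, 2 cage contrasts and the interaction. TPM keeps no read depth. The labels name mice by number, so replicates are animals. Motifs were searched in RefSeq promoter windows on GRCm38.p6, and shared 31-base words in GENCODE M21 transcripts.

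The members and lists were chosen with earlier results of these data known. All 37 members are named; of each other list, the 2 tested genes with the smallest genotype p and the 2 with the smallest cage p. A further gene named by the rule is not reported here. Promoters were chosen as the 3 most abundant tested members per group that held the group's motif. Protein sequences were not used here. Alternatives were other pseudocounts, filters, scalings and cage terms, mitochondrial genes left out, and each mouse or cage left out. Leaving out the 4 mice with most leukocyte marker RNA was added after seeing the data. It removed both WT mice of cage B.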

Additional observations from a re-analysis of the deposited data

Results flagged for a closer look

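In 7 of 52 sets of KO or WT values (26 tested members in each genotype) 1 mouse lay far from the others of its genotype by Dixon's criterion. Chance gives about 1 in 20 for a single set. The sets share the same mice and are not independent, so an excess over that share cannot be judged. The criterion was not applied to the other genes. Whether these mice lay apart for genes in general was not tested. In KO mice, KO-3 was far above the rest for Irf7 (44.1 TPM, next 21.9 TPM), Ifit1 (9.23 TPM, next 2.45 TPM) and Ifit2 (2.30 TPM, next 1.41 TPM). KO-3 was also the library with the largest share of mitochondrial RNA (42.9%) and the single KO mouse of cage C. KO-8, of cage A, was far below the other KO mice for Irf1 (30.4 TPM, next 67.0 TPM), Stat2 (1.02 TPM, next 5.10 TPM) and Zbp1 (0.817 TPM, next 3.72 TPM). In WT mice, WT-5, also of cage A, was far below the others for Stat2 (2.22 TPM, next 4.59 TPM).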

How the results depend on the processing

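No member passed the FDR of 0.05 for genotype, cage or the interaction under any alternative run; the smallest adjusted p over all of them was 0.764 for genotype, 0.177 for the F test on cage, 0.0610 for cage A against cages B and C and 0.426 for the interaction. The count of members lower in KO at an unadjusted p under 0.05 (1) was 0 with mitochondrial genes left out, without a cage term, with cage as a random block, without cage A, without cage B or without the 4 leukocyte-rich mice, 4 without cage C, and 0 to 4 with 1 mouse left out. The count higher in KO (0) was 1 without cage A or without cage B, and 0 to 1 with 1 mouse left out. The 20 members with a difference below 0 became 13 without cage B, 13 without the 4 leukocyte-rich mice, and 15 to 25 with 1 mouse left out. With 1 mouse left out, members lower in cage A (11) numbered 7 to 14 and members under 0.05 in the interaction (5) numbered 2 to 7. The genotype difference of the type I score (-0.16) ran between -0.33 (without KO-3) and -0.035 (without WT-11) with 1 mouse left out, that of the gamma score (-0.08) between -0.29 (without KO-3) and 0.0063 (without KO-4), and that of type I minus gamma (-0.07) between -0.18 and -0.0063. Without cage B the 3 differences were -0.0037, 0.18 and -0.18, and without the 4 leukocyte-rich mice 0.035, 0.14 and -0.11. Leaving out these 4 mice also removes both WT mice of cage B, so cage B no longer bears on the genotype difference.

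Over 589 pairs of member and alternative, 527 kept their sign and side of the threshold and 62 turned sign; 11 members never turned. Without cage B the log2 fold changes became 0.23 (Irf7), 0.11 (Bst2), 0.043 (Gbp7), 0.21 (Igtp), 0.35 (Psmb8), 0.0055 (Psmb9) and 0.15 (Cd274). Without the 4 leukocyte-rich mice they became 0.34 (Irf7), 0.15 (Bst2), 0.027 (Gbp7), 0.0061 (Igtp), 0.36 (Psmb8), 0.015 (Psmb9) and 0.20 (Cd274), and members that kept their sign moved too: Ifit1 to -0.0050, Isg15 to -0.081 and Gbp2 to -0.20. Without WT-11, Isg15 became -0.28 and Oasl2 -0.034, and without KO-8, Zbp1 became -0.033. Without cage C the log2 fold changes became -0.11 (Ifit2), -0.12 (Ifit3b), -0.30 (Rsad2), -0.46 (Ifi47) and -0.16 (Tap1). Without cage A they became 0.16 (Stat2), 0.042 (Zbp1), -0.16 (Tap1) and 0.023 (Cd274). A pseudocount of 1 gave 0.0083 (Stat2) and -0.0011 (Tap1). Mitochondrial genes left out gave 0.0017 (Irf7), no cage term -0.0071 (Ifit3b) and -0.023 (Rsad2), and cage as a random block -0.015 (Rsad2). With 1 mouse left out, the ranges that crossed 0 were -0.19 to 0.18 (Irf7), -0.29 to 0.35 (Stat2), -0.11 to 0.23 (Ifit2), -0.12 to 0.20 (Ifit3b), -0.30 to 0.17 (Rsad2), -0.19 to 0.0082 (Bst2), -0.19 to 0.010 (Gbp7), -0.24 to 0.072 (Irgm2), -0.46 to 0.57 (Ifi47), -0.16 to 0.14 (Tap1), -0.39 to 0.17 (Psmb8) and -0.22 to 0.050 (Cd274). The cause was not tested.

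No paired analysis was possible because KO and WT mice share no mouse numbers; cage mates were compared through the cage term. Without KO-3 the interaction was fitted for cages A and B alone. Cage tests were not run where a cage or the cage term was left out. TPM keeps no depth, so the precision of low members rests on the spread between mice alone.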

Other observations

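Mitochondrial genes took the largest share of summed TPM in KO-3 (42.9%), KO-9 (29.8%), KO-4 (29.8%) and WT-10 (31.4%), and the type I scores of these mice were 0.65, -0.13, -0.24 and 0.61. In the other mice the shares were 28.2% (WT-2), 24.7% (WT-5), 23.0% (WT-11), 22.3% (WT-6), 20.7% (KO-8), 19.1% (WT-7) and 19.0% (KO-1). Their type I scores, in that order, were -0.08, -0.30, 0.53, -0.02, -0.69, -0.12 and -0.21. The relation of share and score was not tested.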
